A study of Homo sapiens with 26 samples.

Results

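FOXA1 is a forkhead transcription factor that the series title calls a pioneer factor, a protein able to find its sites in compacted chromatin. The sites described here are the FOXA1 peaks that, among 4 other peak lists of the series, overlap only the list of the variant FOXA1rraa. A FOXA1 peak was taken when it shared at least 1 bp with a FOXA1rraa peak and no base with a FOXA1nhaa, FOXA1dbd or HNF4A peak. Of 155652 FOXA1 peaks, 18096 met this rule, or 11.6%. They covered 6.63 Mb in the hg19 build. They are called FOXA1rraa-only sites below, by the rule and not as a statement on binding, because overlap alone chose them and their overlaps are therefore a description.

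The study expressed HALO-tagged proteins in BJ, a long-established fibroblast line from human foreskin, and mapped their binding by ChIP-seq, that is chromatin immunoprecipitation followed by sequencing, through the HALO tag. The groups used here are FOXA1, its variants FOXA1rraa, FOXA1nhaa and FOXA1dbd, and HNF4A, a nuclear receptor, each expressed ectopically for 48 hours and each with 2 ChIP and 2 input libraries in the labels. The lists describe these introduced proteins and not the cell's own factors. The 6 peak lists analysed were 1 for each construct and a down-sampled one for FOXA1, with no replicate list and no read counts. Differences between groups of sites therefore have no replicate error and no test. The intervals given are 95% intervals, by the Wilson method for shares and from binomial ranks of the ordered values for medians. They cover counting error over sites and nothing else, and the read depth is unknown.

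Forkhead proteins read DNA through a winged-helix domain that places a recognition helix in the major groove over a short core sequence and touches the sugar-phosphate backbone on either side. From knowledge of FOXA proteins and not from the labels, nhaa stands for alanine changes of an asparagine and a histidine that contact bases, and rraa for alanine changes of arginines that contact the backbone. The letters dbd are read here as the DNA-binding domain. AP-1, a dimer of FOS and JUN family proteins, is a major factor at fibroblast enhancers, and its motif was searched beside the forkhead core.

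The FOXA1rraa-only sites were first traced to their origin in the lists. Every one of the 18096 sites was present in the FOXA1rraa list with the same start and end and the same score as in the FOXA1 list. All carried the peak-name prefix HALOIP1, which is the prefix of the FOXA1 list. None of them overlapped a FOXA1rraa peak with another prefix. The FOXA1rraa list held 23216 rows of this prefix among its 71202 rows, and 0 of the 23216 overlapped a FOXA1nhaa peak. A further 4736 of them overlapped FOXA1dbd and not HNF4A, 180 overlapped HNF4A and not FOXA1dbd, and 204 overlapped both. For the sites described here the FOXA1rraa list thus gives no position or score that differs from the FOXA1 list, and whether FOXA1rraa bound them as a separate measurement was not tested. In the whole FOXA1 list 39.9% of peaks overlapped FOXA1rraa, 39.7% FOXA1nhaa, 17.3% FOXA1dbd and 1.68% HNF4A.

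The sequences of strong sites show what the peaks look like at base level. The 8 highest-scoring FOXA1rraa-only sites with a forkhead core, TGTTTAC or TATTTAC on either strand, in their central 200 bp were chosen by rule, and 7 of them are printed. Each line gives the location, the stretch shown in hg19 and its strand, and 55 bases on each side of the core nearest the peak midpoint. Capitals mark forkhead cores, and every stretch is turned so that its core reads from 5′ to 3′.
Intron of SPATA1, score 684, chr1:84981731-84981847, plus strand: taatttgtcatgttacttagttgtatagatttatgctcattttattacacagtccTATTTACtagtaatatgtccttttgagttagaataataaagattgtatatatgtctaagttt
Between genes on chromosome 10, score 666, chr10:45263887-45264003, minus strand: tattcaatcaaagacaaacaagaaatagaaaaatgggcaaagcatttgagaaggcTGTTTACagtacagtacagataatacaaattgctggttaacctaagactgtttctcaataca
Intron of NFIB, score 648, chr9:14397254-14397370, minus strand: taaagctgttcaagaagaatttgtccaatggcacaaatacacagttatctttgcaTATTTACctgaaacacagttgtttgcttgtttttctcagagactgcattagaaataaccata
Intron of TPRG1, score 635, chr3:188930814-188930930, minus strand: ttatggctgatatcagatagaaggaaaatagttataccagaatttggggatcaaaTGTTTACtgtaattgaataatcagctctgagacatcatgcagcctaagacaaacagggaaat
Intron of LINC01934, score 584, chr2:181980988-181981104, minus strand: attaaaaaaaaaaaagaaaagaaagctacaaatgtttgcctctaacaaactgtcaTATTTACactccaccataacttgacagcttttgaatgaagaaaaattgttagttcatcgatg
Between genes on chromosome 20, score 576, chr20:52304436-52304552, minus strand: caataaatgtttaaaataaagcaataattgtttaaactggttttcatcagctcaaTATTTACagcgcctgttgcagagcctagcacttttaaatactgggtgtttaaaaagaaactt
Between genes on chromosome 5, score 553, chr5:167906280-167906396, plus strand: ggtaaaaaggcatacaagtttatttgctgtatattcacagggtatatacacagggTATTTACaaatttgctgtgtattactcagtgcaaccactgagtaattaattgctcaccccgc

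Each of these 7 stretches held a single core, and TATTTAC was the core in 5 of them. The stretches are rich in A and T, as are the FOXA1rraa-only sites as a whole, whose central 200 bp had a mean GC content of 32.3% (SD 4.72 over sites). NFIB encodes a nuclear factor I protein, and this site lay 1383 bp from a start of that gene, the shortest such distance of the 8.

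The score is the authors' own value for each peak, with a lowest value of 20 in the list. FOXA1rraa-only sites had a median score of 140 (interval 137 to 141), with quartiles of 90 and 208 and a highest value of 820. The median over all FOXA1 peaks was 124, with quartiles of 81 and 196. Peaks that overlapped only FOXA1nhaa had a median of 114, and peaks that overlapped none of the 4 other lists had a median of 98. Peaks that overlapped both FOXA1nhaa and FOXA1rraa but not FOXA1dbd had a higher median than the FOXA1rraa-only sites, 179, and those in FOXA1rraa and FOXA1dbd but not FOXA1nhaa had 170. Each of these classes also leaves out peaks that overlap HNF4A, here and below. The FOXA1rraa-only sites thus lay between the unshared and the more widely shared peaks in score. They were absent from the 37 FOXA1 peaks that scored above 820, and the highest FOXA1nhaa-only peak scored 713. With so few peaks, and a FOXA1rraa-only share of 11.6% over the whole list, this absence is not read as a trait of the sites.

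The share of FOXA1 peaks that were FOXA1rraa-only changed with score. It was 8.86% in the lowest score quintile, 10.2%, 11.8% and 14.04% in the next ones, and 13.2% in the highest quintile. The share of peaks in FOXA1nhaa only was 13.8%, 14.1%, 14.1% and 13.1% in the first 4 quintiles and 7.76% in the highest. Both shares were lower in the highest quintile than in the fourth. Among peaks with scores of at least 500 and under 900, 96 of 1587 were FOXA1rraa-only, or 6.05% (4.98 to 7.33), compared with 14.8% (14.4 to 15.3) at scores from 200 to 300.

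**Figure D1:**
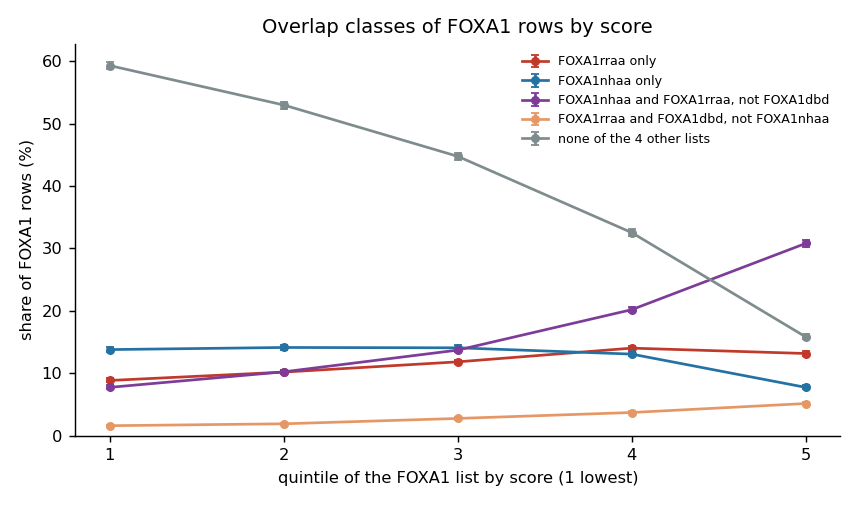
Share of FOXA1 peaks (y axis, percent) in 5 overlap classes within each score quintile of the FOXA1 list (x axis), with 95% Wilson intervals. The FOXA1rraa-only share rises from 8.86% to 14.04% in the fourth quintile, while the FOXA1nhaa-only share is lowest, at 7.76%, in the highest quintile.

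For these sites the FOXA1rraa list also holds a fold enrichment and a −log10 q-value, again the authors' own. Since the rows carry the FOXA1 prefix, these are not read here as a separate measure of FOXA1rraa. In all 18096 sites the score was 10 times the −log10 q-value with decimals dropped, so the q-value repeats the score. The fold enrichment had a median of 6.08, quartiles of 4.73 and 7.79, and a range from 2.05 to 21.1. Rows of the same prefix that also overlapped FOXA1dbd, and not HNF4A, had a median fold enrichment of 6.79. The FOXA1rraa-only sites were a median of 332 bp wide (329 to 335), compared with 300 bp over all FOXA1 peaks, 292 bp for FOXA1nhaa-only peaks and 239 bp for peaks in none of the other lists. Chance overlap grows with width, and its part in the classes was not tested. A second FOXA1 list, labelled as down-sampled by the authors, held 4491 of the sites, or 24.8% (24.2 to 25.5), against 24.6% of all FOXA1 peaks.

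Some rows of the FOXA1 list share a peak name, and 1455 FOXA1rraa-only sites shared theirs with another FOXA1 row. Why names are shared was not settled from the lists. For 566 of these, another row of the same name was overlapped by FOXA1nhaa or FOXA1dbd. Rows of 1 name were separated by spaces with a median of 135 bp, and 212 of 1317 such spaces held part of a FOXA1nhaa peak. The summit given in the FOXA1rraa list lay inside the row for 15133 sites and beyond its end for 2963. There were 160 sites narrower than 50 bp.

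The distance to the nearest peak of each avoided list was then measured. For FOXA1nhaa it does not show how close the sites came to failing the rule. Of the 23216 rows with the prefix HALOIP1 in the FOXA1rraa list, 0 overlapped FOXA1nhaa, so this part of the rule removed none of them. The nearest FOXA1nhaa peak lay a median of 4360 bp away, edge to edge, with quartiles of 1588 and 10283 bp, and was within 100 bp of 211 sites. The nearest FOXA1dbd peak lay a median of 18194 bp away and was within 100 bp of 11 sites. For HNF4A the median was 27884 bp, with 65 sites within 100 bp. Just inside the rule, 32 sites lay within 10 bp of a FOXA1nhaa or HNF4A peak and had a median score of 120. Just outside it, 17 rows with the prefix HALOIP1 in the FOXA1rraa list were overlapped by at most 10 bp and had a median score of 82. These 17 were overlapped by FOXA1dbd or HNF4A, since no such row overlapped FOXA1nhaa, so the 2 sides concern different lists.

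The forkhead core was more frequent in FOXA1rraa-only sites than in FOXA1nhaa-only peaks. It lay in the central 200 bp of 3998 FOXA1rraa-only sites, or 22.1% (21.5 to 22.7). The share was 13.6% (13.1 to 14.1) for FOXA1nhaa-only peaks, 17.04% (16.8 to 17.3) for peaks in none of the other lists and 18.2% (18.01 to 18.4) for all FOXA1 peaks. It was higher still, 26.9% (25.7 to 28.2), in the 4736 peaks of FOXA1rraa and FOXA1dbd without FOXA1nhaa or HNF4A. Peaks in both FOXA1nhaa and FOXA1rraa, without FOXA1dbd, had 18.75% (18.3 to 19.2), near the share of all FOXA1 peaks. None of these 5 intervals overlapped that of the FOXA1rraa-only sites. In flanks of the same sites, 500 to 700 bp from the midpoint, the share was 8.64%, so the centre held the core 2.56 times as often as the flanks. The same ratio was 1.56 for FOXA1nhaa-only peaks and 2.03 for peaks in none of the other lists, whose flank shares were 8.75% and 8.39%. The difference between these classes thus lay in the centres and not in the flanks.

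Both forms of the core took part. TATTTAC was found in 11.8% of all FOXA1 peaks, 14.7% (14.2 to 15.2) of FOXA1rraa-only sites and 8.64% (8.26 to 9.04) of FOXA1nhaa-only peaks. TGTTTAC, the form usually drawn for FOXA proteins, was found in 7.33%, 8.67% (8.27 to 9.09) and 5.50% (5.19 to 5.82). Peaks with 2 or more cores made up 1.99% of all FOXA1 peaks, 2.65% (2.42 to 2.89) of FOXA1rraa-only sites and 1.20% (1.05 to 1.36) of FOXA1nhaa-only peaks. The reversed cores CATTTGT and CATTTAT have the same base composition and differed less. They were found in 20.8% (20.2 to 21.4) of FOXA1rraa-only sites and 19.6% (19.01 to 20.1) of FOXA1nhaa-only peaks, or 1.55 and 1.46 times their flanks.

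The difference was present within each band of score and width examined. Within score quintiles the core share of FOXA1rraa-only sites stayed between 21.4% and 23.4%, and that of FOXA1nhaa-only peaks between 13.07% and 13.95%. Over all FOXA1 peaks the share ran from 17.4% in the lowest quintile to 19.4% in the highest. In peaks of at least 200 and under 300 bp the FOXA1rraa-only and FOXA1nhaa-only shares were 24.8% (23.6 to 26.1) and 13.9% (13.1 to 14.9). In peaks of at least 600 bp they were 18.1% (16.4 to 19.9) and 11.1% (9.52 to 12.8). Among the FOXA1rraa-only sites themselves, those with a core had a median score of 141 and those without a core 139, with overlapping intervals of 136 to 144 and 137 to 141. The top 100 sites by score had a core in 23% (15.8 to 32.2).

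**Figure D2:**
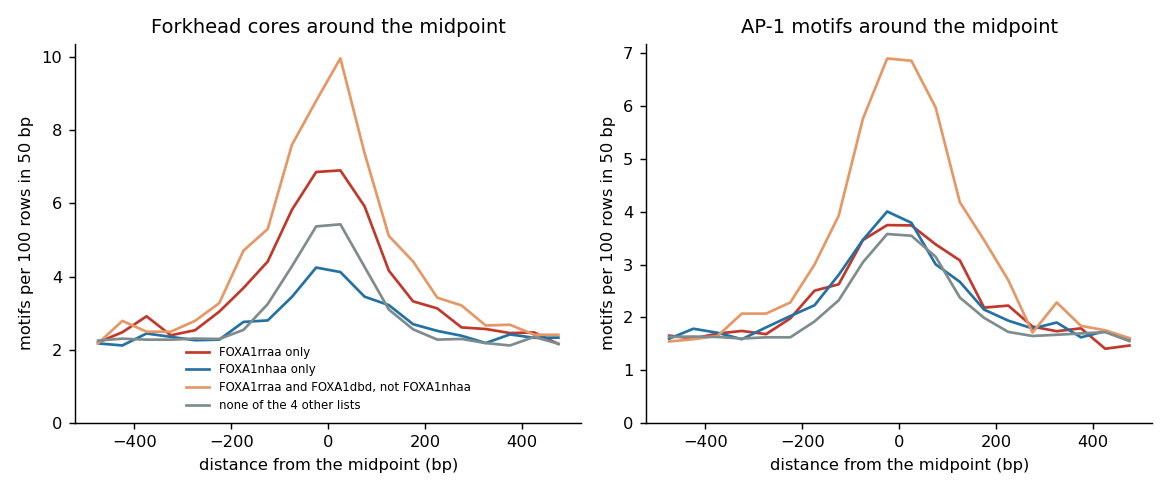
Forkhead cores (left) and AP-1 motifs (right) per 100 peaks in bins of 50 bp (y axes) against distance from the peak midpoint in bp (x axes), for 4 overlap classes. In the bin just past the midpoint the FOXA1rraa-only sites hold 6.90 cores per 100 sites and the FOXA1nhaa-only peaks 4.12, while their AP-1 curves run together.

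Cores were concentrated at the middle of the sites. In the 50 bp on either side of the midpoint there were 6.86 and 6.90 cores per 100 FOXA1rraa-only sites, and 500 bp away there were 2.2. GC content had its lowest value at the same place, at 32.2% in the central bins compared with 38.2% 500 bp away. For the 15133 sites with a summit inside the row, cores lay a median of 12 bp to the left of the summit (−12, quartiles −53 and 34.8), in the direction of lower coordinates, and −1 bp from the midpoint. The summit was placed by adding the deposited offset to the row start. Whether the offsets count from these row starts was not tested, so the shift is not read as a property of the authors' summits.

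AP-1 motifs, TGANTCA, had overlapping intervals in the same 2 classes. They lay in 13.2% (12.7 to 13.7) of FOXA1rraa-only sites and 13.1% (12.6 to 13.6) of FOXA1nhaa-only peaks, at 1.98 and 2.01 times the flanks, and in 14.95% of all FOXA1 peaks. In peaks of FOXA1rraa and FOXA1dbd without FOXA1nhaa, AP-1 motifs reached 22.4% (21.2 to 23.6), or 3.47 times the flanks. Within the rows that the FOXA1rraa list shares with the FOXA1 list, those without FOXA1dbd thus held fewer AP-1 motifs than those with it. The TEAD motif GGAATG was found in 11.6% (11.1 to 12.05) of FOXA1rraa-only sites, 1.18 times the flanks. The RUNX motif TGTGGT and the C/EBP motif TTGCNNCAA were at flank levels, with ratios of 1.03 and 0.952. The HNF4 core CAAAGTCCA lay in 47 sites, or 0.260%, at 1.02 times the flanks. The palindromic NFI motif was found in 0 sites, with an interval up to 0.0212%, and in only 10 of all 155652 FOXA1 peaks. All motifs were searched on both strands, and a match is a run of letters and not a measured contact.

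The 4652 words of 7 bases found in at least 200 sites were then ranked by their share of sites in the centre divided by that in the flanks. This ranking was made on the same sites and serves as a description. GTGTGTA, read together with its reverse complement TACACAC, came first at 3.31 times the flanks, in 11.1% of FOXA1rraa-only sites and 4.35% of FOXA1nhaa-only peaks. TGTGTAT (reverse complement ATACACA) came second at 3.22 times, in 18.4% and 8.72%. TATTTAC was the eighth word, at 2.76 times, and TGTTTAC the 33rd, at 2.46 times. Words that differ from the core by a single base stood among them, such as TATTGAC at 2.76 times and TATGTAC at 3.0 times.

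These 1-base variants of the core were also more frequent in FOXA1rraa-only sites. They were taken up after words had been ranked in these same sites, a choice that can favour them. The comparison with other classes is therefore a description and no further support. TGTTGAC or TATTGAC lay in 9.99% of FOXA1rraa-only sites and 5.99% of FOXA1nhaa-only peaks, TGTGTAC or TATGTAC in 13.1% and 8.17%, and TGTTTGC or TATTTGC in 15.4% and 12.2%. A core or any of these variants was present in 49.3% (48.6 to 50.03) of FOXA1rraa-only sites and 35.3% (34.6 to 35.9) of FOXA1nhaa-only peaks. The share was 42.7% (42.4 to 42.9) over all FOXA1 peaks and 55.9% (54.5 to 57.3) in peaks with FOXA1rraa and FOXA1dbd without FOXA1nhaa. The highest-scoring FOXA1rraa-only site, with a score of 820, is an example without a core. It lay between genes on chromosome 4, and the capitals in its central 120 bp mark TGTTGAC read on the other strand. The variants TGTGTAC and TATTTGC also occur there on that strand and are left in small letters.
Between genes on chromosome 4, score 820, chr4:34067555-34067674, plus strand: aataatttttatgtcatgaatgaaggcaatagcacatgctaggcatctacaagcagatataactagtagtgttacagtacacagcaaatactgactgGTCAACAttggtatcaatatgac

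Among the motifs searched, repeats of the CA dinucleotide differed by the largest factor between FOXA1rraa-only sites and FOXA1nhaa-only peaks. The repeat, too, was taken up after the ranking in FOXA1rraa-only sites, so its values are a description. A run of 12 bases of alternating C and A, on either strand, lay in the central 200 bp of 701 FOXA1rraa-only sites, or 3.87% (3.6 to 4.16). It lay in 114 FOXA1nhaa-only peaks, or 0.582% (0.485 to 0.699). In all FOXA1 peaks the share was 1.78% (1.72 to 1.85), and in peaks of FOXA1rraa and FOXA1dbd without FOXA1nhaa it was 4.12% (3.59 to 4.72). Peaks in both FOXA1nhaa and FOXA1rraa had 1.59% (1.44 to 1.75), again near all FOXA1 peaks. Relative to flanks the ratio was 3.58 in FOXA1rraa-only sites and 0.595 in FOXA1nhaa-only peaks, so the repeat was more frequent at the centre than beside it in the former and less frequent in the latter. The share stayed between 3.55% and 4.31% of FOXA1rraa-only sites in every score quintile, and between 0.465% and 0.737% of FOXA1nhaa-only peaks. Runs of 20 bases or more were found in 0.973% (0.840 to 1.13) and 0.133% (0.0907 to 0.195). Short reads from simple repeats can be placed with less certainty, and how reads in them were handled in each list is not given in the sources used here, so the part of read placement was not tested.

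The difference in forkhead cores was also seen without the repeat. Without the sites that held a repeat, 22.2% (21.6 to 22.9) of FOXA1rraa-only sites and 13.7% (13.2 to 14.2) of FOXA1nhaa-only peaks had a core. The word TGTGTAT, itself taken from the ranking, also remained apart without them, at 16.5% (15.9 to 17.05) and 8.55% (8.16 to 8.95). Sites with the repeat had a median score of 132 and a median width of 316 bp, compared with 141 and 333 bp for the other FOXA1rraa-only sites. Of the highest-scoring FOXA1rraa-only sites with a repeat, 3 are printed to show its form, as the central 120 bp on the plus strand with the repeat in capitals.
Intron of POLR2F, score 688, chr22:38421296-38421415, plus strand: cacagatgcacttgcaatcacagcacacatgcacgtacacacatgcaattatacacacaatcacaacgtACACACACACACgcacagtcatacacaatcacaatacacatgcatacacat
Intron of SCHLAP1, score 560, chr2:181634642-181634761, plus strand: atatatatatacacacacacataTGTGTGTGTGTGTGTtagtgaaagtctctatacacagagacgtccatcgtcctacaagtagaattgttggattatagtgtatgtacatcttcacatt
Intron of CRYL1, score 470, chr13:21040737-21040856, plus strand: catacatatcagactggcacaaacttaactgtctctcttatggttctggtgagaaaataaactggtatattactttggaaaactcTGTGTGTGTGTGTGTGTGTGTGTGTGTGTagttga

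**Figure D3:**
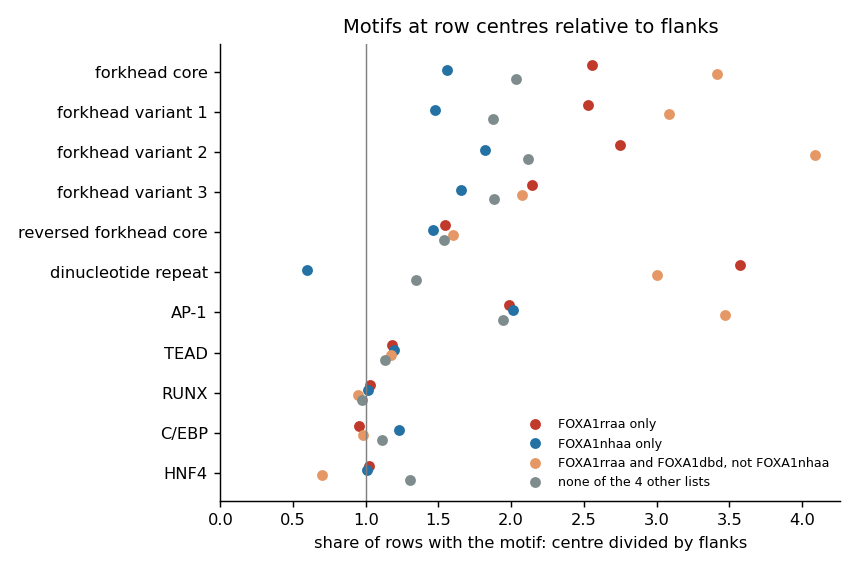
Share of peaks with each motif in the central 200 bp divided by the share in flanks 500 to 700 bp away (x axis), for 11 motifs and 4 overlap classes; the grey line marks a ratio of 1. Variants 1 to 3 are the 1-base variants of the core in the order of the text. They and the repeat were taken up after words were ranked in the FOXA1rraa-only sites. The dinucleotide repeat has a ratio of 3.58 in FOXA1rraa-only sites and 0.595 in FOXA1nhaa-only peaks, whereas AP-1 is at 1.98 and 2.01.

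The position of the sites relative to genes was close to that of the FOXA1 list. Midpoints of 8.17% (7.78 to 8.58) of FOXA1rraa-only sites were at most 1000 bp from a transcription start in the annotation, compared with 8.87% (8.73 to 9.01) of all FOXA1 peaks and 9.43% (9.03 to 9.85) of FOXA1nhaa-only peaks. Introns held 64.8% (64.1 to 65.5) of the sites and 64.6% of all FOXA1 peaks. A further 21.3% (20.7 to 21.9) lay between genes, 5.72% (5.39 to 6.07) in exons away from a start, and 0.707% of all the sites in coding exons. The median distance to the nearest transcription start was 9.84 kb, compared with 9.62 kb for all FOXA1 peaks. The sites were spread through the genome, in 10398 windows of 100 kb, of which 5879 held a single site. The nearest other FOXA1 peak lay a median of 2.79 kb away and the nearest other FOXA1rraa-only site 26.2 kb away.

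The 10 highest-scoring FOXA1rraa-only sites ran from a score of 820 down to 659, and 8 of them lay in introns. After the site on chromosome 4, which was 1980041 bp from the nearest start of a protein-coding gene (ARAP2), the second lay in an intron of the RNA gene IL12A-AS1 on chromosome 3 (159773443 to 159773914), scoring 741 at 19.4-fold enrichment. The third lay in PDE7B, a cyclic AMP phosphodiesterase gene, on chromosome 6 (136195660 to 136196870). It scored 732 and was 1211 bp wide. The site in TMTC2 on chromosome 12 (83347120 to 83347997, score 724) was only 129 bp from a FOXA1nhaa peak. By contrast, the site in POLR2F, a gene for a shared RNA polymerase subunit, was 66066 bp from the nearest FOXA1nhaa peak and 127040 bp from the nearest FOXA1dbd peak. The others were in TNRC6B, SPATA1, SCN9A and TUSC3 and between genes on chromosome 10. Of these 10 sites, 2 had a forkhead core in the central 200 bp, 1 had a CA repeat and 1 an AP-1 motif.

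Chromosomes differed in how many of their FOXA1 peaks were FOXA1rraa-only. On chromosomes 1 to 22 together the share was 11.6% (11.4 to 11.7), from 10.3% on chromosome 8 to 13.4% on chromosome 13. Chromosome X stood higher, with 346 of 2222 peaks, or 15.6% (14.1 to 17.1). On this chromosome the overlap with every list was lower than on chromosomes 1 to 22, at 25.9% against 40.1% for FOXA1rraa, 15.6% against 40.1% for FOXA1nhaa, and 4.95% against 17.5% for FOXA1dbd. FOXA1 peaks on X also had a lower median score, 90 against 124. Within the fourth score quintile 29.0% (23.8 to 34.8) of X peaks were FOXA1rraa-only, against 13.9% (13.5 to 14.3) on chromosomes 1 to 22. This was the widest gap of the 5 quintiles. In the lowest quintile the shares were 10.5% (8.48 to 12.96) and 8.83% (8.51 to 9.15), with overlapping intervals. In the second they were 13.6% and 10.1%, and in the third 18.1% and 11.7%. In the highest quintile, with 14 of 77 X peaks, they were 18.2% (11.2 to 28.2) and 13.2% (12.8 to 13.6), again with overlapping intervals. The part of copy number and read depth on X was not tested.

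**Figure D4:**
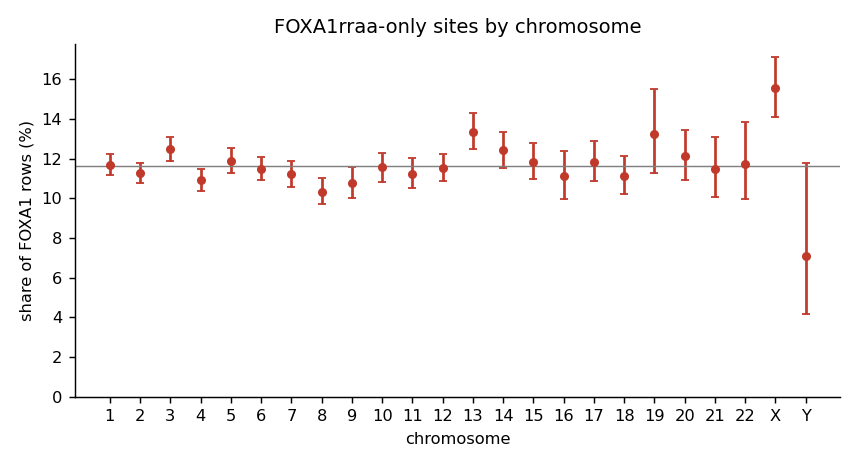
Share of FOXA1 peaks on each chromosome (x axis) that are FOXA1rraa-only sites (y axis, percent), with 95% Wilson intervals; the grey line marks 11.6%, the share over all chromosomes. Chromosome X, at 15.6%, lies above chromosomes 1 to 22, which run from 10.3% to 13.4%.

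Genes that held many FOXA1rraa-only sites were long genes with many FOXA1 peaks. At least 1 site midpoint lay in the body of 5230 of 20136 protein-coding genes, or 26.0%, and at least 1 FOXA1 midpoint in 10867 of them. NEGR1, a cell adhesion gene of 887 kb on chromosome 1, held the most, 38 of its 316 FOXA1 peaks, or 12.03% (8.89 to 16.1). RBMS3, which encodes an RNA-binding protein, held 35 of 213, and DPYD, the gene of the enzyme that starts pyrimidine breakdown, 26 of 215. NAALADL2 held 24 of 186. PARD3B, a cell polarity gene, held 23 of 130, PLCB1, a phospholipase C gene, 23 of 111, and TBC1D5, a regulator of RAB proteins, 23 of 150. ENSG00000283563, which overlaps RBMS3, held 22 of 172 and shares sites with it.

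The remaining pair of the 10 had the shortest bodies. TCF4, a gene of 443 kb for a helix-loop-helix transcription factor, held 22 of 99, or 22.2% (15.2 to 31.4), with 10 of the 22 holding a forkhead core. ZBTB20, which encodes a zinc-finger repressor, held 22 of 119, or 18.5% (12.5 to 26.4). These genes were taken because their counts were high, so their shares are a description. Over all genes the share was 11.4% (10.9 to 11.9) in genes under 50 kb, 11.7% (11.4 to 11.996) from 50 to 200 kb, 11.7% (11.4 to 12.1) from 200 to 500 kb and 11.99% (11.5 to 12.6) in longer genes, with overlapping intervals.

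Gene lists chosen for fibroblasts and for the liver, where FOXA proteins are best known, were examined by the share of FOXA1 peaks in or within 10 kb of their genes that were FOXA1rraa-only. Over all protein-coding genes this share was 11.6%. Of the 26 genes of fibroblast transcription factors, 14 had at least 1 site, against 31.9% of all protein-coding genes, but these genes were longer, with a median of 86.7 kb against 27.2 kb. Their share was 11.05% (8.64 to 14.02). RUNX1, a runt-domain factor, had 10 sites among 110 FOXA1 peaks, EBF1, an early B-cell factor family gene, 8 of 42, and TEAD1, a partner of YAP, 6 of 54. ZEB2, a repressor of epithelial genes, had 5 of 36, and NFIB 4 of 34, with the site of score 648 shown above.

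Actin cytoskeleton and focal adhesion genes had 67 sites among 479 FOXA1 peaks, or 14.0% (11.2 to 17.4). LPP, a zyxin family gene, and PTK2, the gene of focal adhesion kinase, each had 14 sites, of 105 and 84 peaks. PALLD, encoding the actin-bundling protein palladin, had 11 of 63, CALD1 (caldesmon) 7 of 44, and TPM1 (tropomyosin) 4 of 12. The site of CALD1 with the highest score, 533, lay outside the gene body, at 134419903 to 134420484, whereas the body begins at 134429003. It was within 1000 bp of an annotated transcription start, but starts of all genes were counted, so this is not read as a CALD1 start.

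Collagen genes had the lowest share of the 9 lists, 23 of 305 or 7.54% (5.08 to 11.1). COL11A1 held 10 of these 23 sites, among 78 peaks, whereas COL5A2 held 4 among 83. Without COL5A2 the share was 19 of 222, or 8.56% (5.55 to 12.98), and without COL1A2, which had 0 sites among 17 peaks, it was 7.99% (5.38 to 11.7), and both intervals include the share over all genes. Peaks of a list cluster in a few genes, which these intervals leave out of account, so no list is placed above or below the share over all genes. Genes of the TGF-beta pathway had 39 of 417, or 9.35% (6.92 to 12.5). In this pathway TGFBR1 and TGFBR2, the signalling receptors, had 3 sites each, of 14 and 15 peaks, SMAD3, which carries the signal to the nucleus, had 5 of 12, and SMURF2, a ubiquitin ligase of the pathway, 5 of 56. The TEAD and YAP pathway genes had 43 of 412, or 10.4% (7.84 to 13.8), including 13 of 85 in STK3, a Hippo pathway kinase, 5 of 34 in WWTR1, which encodes TAZ, and 4 of 41 in VGLL3, whose highest site scored 599.

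Liver gene lists held few FOXA1 peaks in these fibroblasts. The median per gene was 1 for transcription factors and 0 for secreted and metabolic genes, against 2 over all protein-coding genes. Their median gene lengths were 34.5 kb and 14.4 kb, against 27.2 kb, and the part of gene length was not tested. The 24 liver transcription factor genes had 4 sites among 48 peaks. The 24 genes of liver secreted proteins and metabolism had 11 among 56, or 19.6% (11.3 to 31.8), of which 4 lay at FGB, a fibrinogen chain gene of 9.80 kb with 9 FOXA1 peaks, and 3 at CPS1, the first urea cycle enzyme. Hormone-response genes with known FOXA1 enhancers had 11 of 82, or 13.4% (7.66 to 22.4). Among them MYB, a transcription factor gene, had 3 of 4. AP-1 subunit genes had 2 of 16. With counts this small a share of any of these lists cannot be placed above or below 11.6%.

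**Figure D5:**
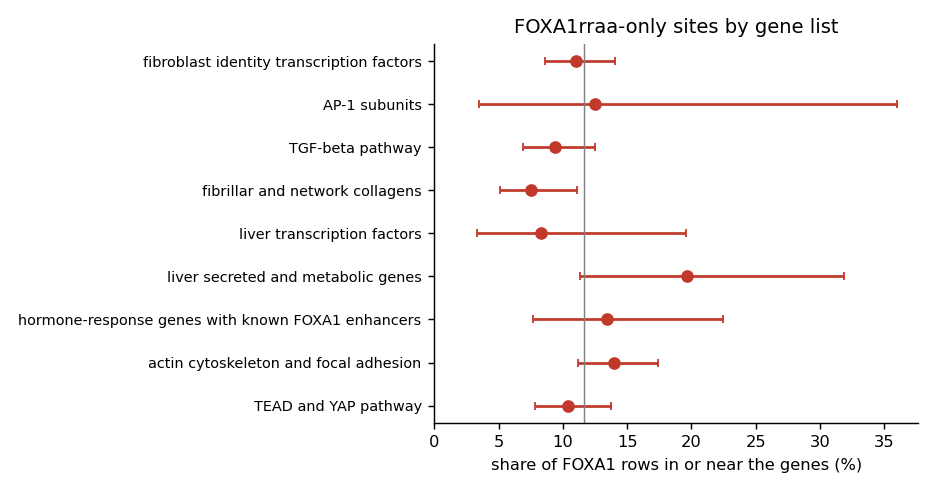
Share of FOXA1 peaks in or within 10 kb of the genes of each list that are FOXA1rraa-only (x axis, percent), with 95% Wilson intervals; the grey line is the share over all protein-coding genes, 11.6%. The collagen share is lowest, at 7.54%, and its interval ends at 11.1%, but it includes the line when COL5A2 or COL1A2 is left out.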

How the data were processed

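The deposited FOXA1 list gives a score per peak, and the deposited lists of the other 4 constructs add a fold enrichment (a ratio), −log10 p-values and −log10 q-values, and a summit offset. These are the authors' own values. Per the submitters' processing notes the build was hg19 and the tools included Bowtie2 2.3.4.1, Picard, GATK 4.2.6.0, bedtools 2.27.1, MACS2 2.2.7.1 and deepTools 3.5.0, with no role or order. Pooling of libraries before peak calling is not given in the sources used here.

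Sites were selected with Python 3.11.15, numpy 2.4.6 and pandas 2.3.3, and the code was tested on simulated data. Peak ends fitted the GRCh37 chromosome lengths, and sequence and genes came from GRCh37 and GENCODE 44 lifted to it. Motifs were searched around row midpoints. Sites named were the 10 highest-scoring, the 8 highest-scoring with a core, the 10 genes and 5 windows of 100 kb with the most sites and, in 9 gene lists, up to 8 genes with 3 or more sites. One site on chromosome 8 was not printed as sequence. The 3 repeat sites printed, the repeat itself, TGTGTAT and the 1-base variants were chosen after their values were seen. The sites and lists were chosen with earlier results of these data known. Some items that these rules name are not reported here. The H2B samples were not analysed here.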

Additional observations from a re-analysis of the deposited data

How the results depend on the processing

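Of 55 values recomputed under other settings, 45 moved by no more than counting error (1.5 times for the number of sites). With only the best-scoring 50% of every list, 12018 sites remained, with a median score of 198 and a median width of 405 bp. Joining rows by peak name gave a median width of 342 bp. In the central 100 bp the forkhead share was 12.04% and the CA repeat share 2.10%. With the window around the summit, or the midpoint where the summit lay beyond the row, the forkhead share was 21.3%. The reversed cores, around the midpoint, gave 20.8%. Within 2500 bp of a transcription start lay 18.6% of sites, and within 1000 bp of a start of a protein-coding gene 5.63%. The repeat settings, the removal of repeat sites and the removal of the 1455 sites with a shared peak name were added after the data were seen. Under 50% overlap, centres within 200 bp and the top 50% of each list, the FOXA1rraa-only forkhead share was 22.1%, 22.04% and 22.6% and the FOXA1nhaa-only share 13.5%, 13.6% and 15.5%. No paired analysis was possible because the peak lists carry no replicate numbers, and leaving out a replicate was not possible either. The lists give no read depth, so limits on detection cannot be given. Leaving out single genes of the gene lists, also added after the data were seen, (the genes named here were chosen after their values were seen) moved the interval of 4 lists across the share over all genes: collagens (up to 8.56%), the TGF-beta pathway without SMAD3 (8.40%, 6.07 to 11.5), actin and focal adhesion without ITGB1 (14.7%, 11.7 to 18.4) and liver secreted genes without AFP (23.4%, 13.6 to 37.2), CYP3A4, FGG or TF.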

Other observations

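FOXA1rraa-only sites were densest in 2 windows of 100 kb with 10 sites each. The window on chromosome 3 (145800001 to 145900000), which holds PLOD2, a collagen lysyl hydroxylase gene, had 10 sites among 40 FOXA1 peaks, with a median score of 157.5. The window on chromosome 4 (100800001 to 100900000), which holds DNAJB14, H2AZ1 and LAMTOR3, had 10 among 41, with a median score of 237. Windows with 9 sites lay on chromosome 10 at ATAD1 and PAPSS2 and on chromosome 1 at FYB2, PLPP3 and PRKAA2. Of all windows with a site, 310 held 5 or more.

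The base that follows the forkhead core differed by at most a few percentage points between FOXA1rraa-only sites and FOXA1nhaa-only peaks. After the core came A in 42.7% of 4520 cores of FOXA1rraa-only sites and in 43.0% of 2911 cores of FOXA1nhaa-only peaks, T in 36.8% and 39.8%, C in 17.5% and 14.8%, and G in 3.05% and 2.44%. Neighbouring cores in a site pointed the same way in 51.7% of 522 pairs.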
